A study of Mus musculus with 18 samples.

Results

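Transcript levels of 10 enzymes that make NADPH or feed its production were examined in the retinal pigment epithelium (RPE) of *rd1* mice. They were chosen by name from the pentose phosphate pathway, the malic enzymes and the NADP isocitrate dehydrogenases, with earlier results of these data known. All 10 had values among the 47729 genes of the count table, and all 10 passed the filter on low counts, as 18958 genes did. They comprised 3 oxidative genes (*G6pdx*, *Pgls*, *Pgd*), 3 non-oxidative genes (*Taldo1*, *Tkt*, *Rpia*), 2 malic enzymes (*Me1*, *Me2*) and 2 isocitrate dehydrogenases (*Idh1*, *Idh2*).

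RNA was sequenced from both eyes of 9 *rd1* mice at P40, giving 9 Best1-Nrf2 and 9 control libraries. All are labelled *rd1* and all were used, although the study's methods name fewer *rd1* pairs at this age and do not say which. They also name pairs of the wild-type strain CD1 at P40, and the pairs of both strains add up to the number labelled *rd1* here. Whether all 9 mice were *rd1* was not tested, and every value below rests on that label. The *rd1* mouse carries a mutation in the rod phosphodiesterase gene *Pde6b*, so that rods die early in both groups. The treated eye received an AAV that expresses human Nrf2 from the human Best1 promoter, mixed with AAV-Best1-GFP. The other eye of the same mouse had AAV-Best1-GFP alone. This promoter is active in the RPE, whereas the RNA came from an eyecup freed of retina and may also hold transcripts of other cells. Totals ranged from 18956748 to 44054836 counts (median 35278998) in control libraries and from 32839893 to 49598700 (median 38914241) in Best1-Nrf2 libraries. The targeted gene was checked first. *Nfe2l2*, which encodes Nrf2, rose from 89.7 ± 17.8 to 453.5 ± 146.8 CPM, which are counts scaled to the size of the library (SD, n = 9 each). It was higher in the treated eye of 9 of 9 mice. Reads were assigned to mouse genes. Any reads of the human cDNA in these counts cannot be told apart from mouse reads, and how many were counted was not tested.

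NADPH is the reducing currency that glutathione reductase, thioredoxin reductase and the lipid-making enzymes spend. In the cytosol, the oxidative branch of the pentose phosphate pathway makes it from glucose-6-phosphate, the non-oxidative branch returns the resulting pentoses to glycolysis, and the cytosolic malic enzyme and isocitrate dehydrogenase supply more. The RPE recycles retinal and takes up shed photoreceptor membranes under high oxygen, and NADPH also serves the reduction of retinaldehyde in the neighbouring photoreceptors. Nrf2 acts by binding antioxidant response elements, and genes of the pentose phosphate pathway and *Me1* are among those it is known to control.

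Promoter sequences are shown for the 4 members that rose, since such elements are often found near the start of a gene. RefSeq promoter windows on GRCm38.p6, from 250 bases before to 50 bases after each start, were given for 9 members. They were searched on both strands for TGACNNNGC, the core letters of the element. The letters were found in 3 of these 9 members (33.3%), compared with 3781 of 27025 genes (14%), and in 3 of the 12 windows of members (25%), compared with 4071 of 32851 windows in all (12.4%). The matches belonged to *G6pdx*, *Me1* and *Pgd*, each in 1 window. The other windows of *Me1* and *Pgd* held none, that at the start of the GENCODE *Pgd* gene included, and the windows of *Pgls*, *Taldo1*, *Tkt*, *Rpia*, *Idh1* and *Idh2* held none. A match describes the letters only and is not a measured binding site. For the matches, 30 bases are printed 5′ to 3′ along the gene, with the matching letters in capitals. For *Taldo1*, 150 bases before to 12 bases from the start are printed, with no match.
G6pdx: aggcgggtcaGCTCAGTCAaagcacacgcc
Me1: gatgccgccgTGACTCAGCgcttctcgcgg
Pgd: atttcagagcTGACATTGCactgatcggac
Taldo1: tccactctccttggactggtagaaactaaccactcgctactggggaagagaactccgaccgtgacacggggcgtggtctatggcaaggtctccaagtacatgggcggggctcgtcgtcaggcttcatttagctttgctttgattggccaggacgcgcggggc
The *G6pdx* stretch lies at chrX:74428918-74428947 on the minus strand. Its matching letters lay 57 to 49 bases before the RefSeq start and read TGACTGAGC on the strand opposite the gene. This start is 314 bases inside the GENCODE gene, so that the letters are also within 1 annotated longer transcript. In the *Me1* stretch (chr9:86695901-86695930, minus strand), TGACTCAGC spanned the start itself, from 6 bases before to 2 bases after the first base. In the *Pgd* stretch (chr4:149166060-149166089, minus strand), TGACATTGC lay 3 to 11 bases after a RefSeq start that is 689 bases inside the GENCODE gene, in sequence that 3 annotated transcripts retain. *Pgd* is counted among the 3 members with a match through this window alone, which lies inside the GENCODE gene. The *Taldo1* stretch lies at chr7:141392010-141392171 on the plus strand.

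The 4 members higher with Best1-Nrf2 were *Pgd*, *G6pdx*, *Taldo1* and *Me1*, with log2 fold changes of 2.63, 1.71, 1.67 and 1.01 in the paired fit of edgeR. None of the 10 was lower, by an adjusted or an unadjusted p under 0.05, and DESeq2 and voom also called none lower. Over all 18958 genes tested, 592 (3.12%) were higher and 214 (1.13%) were lower. The median log2 fold change was 0.37 over the 10 members and −0.03 over all genes. By branch, the median was 1.71 in the oxidative branch (2 of 3 higher), 0.05 in the non-oxidative branch (1 of 3), 0.62 for the malic enzymes (1 of 2) and 0.26 for the isocitrate dehydrogenases (0 of 2 with edgeR, DESeq2 and voom, and by an unadjusted p in edgeR). The summed level of the members was 1356 to 3703 CPM in control eyes (median 1679) and 2509 to 5373 CPM in Best1-Nrf2 eyes (median 4112), and it was higher in the treated eye of 9 of 9 mice. In a fit with the mean of rod and cone markers as a covariate, no member passed, and neither did *Nfe2l2* itself (1.86, adjusted p = 0.093).

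**Figure D1:**
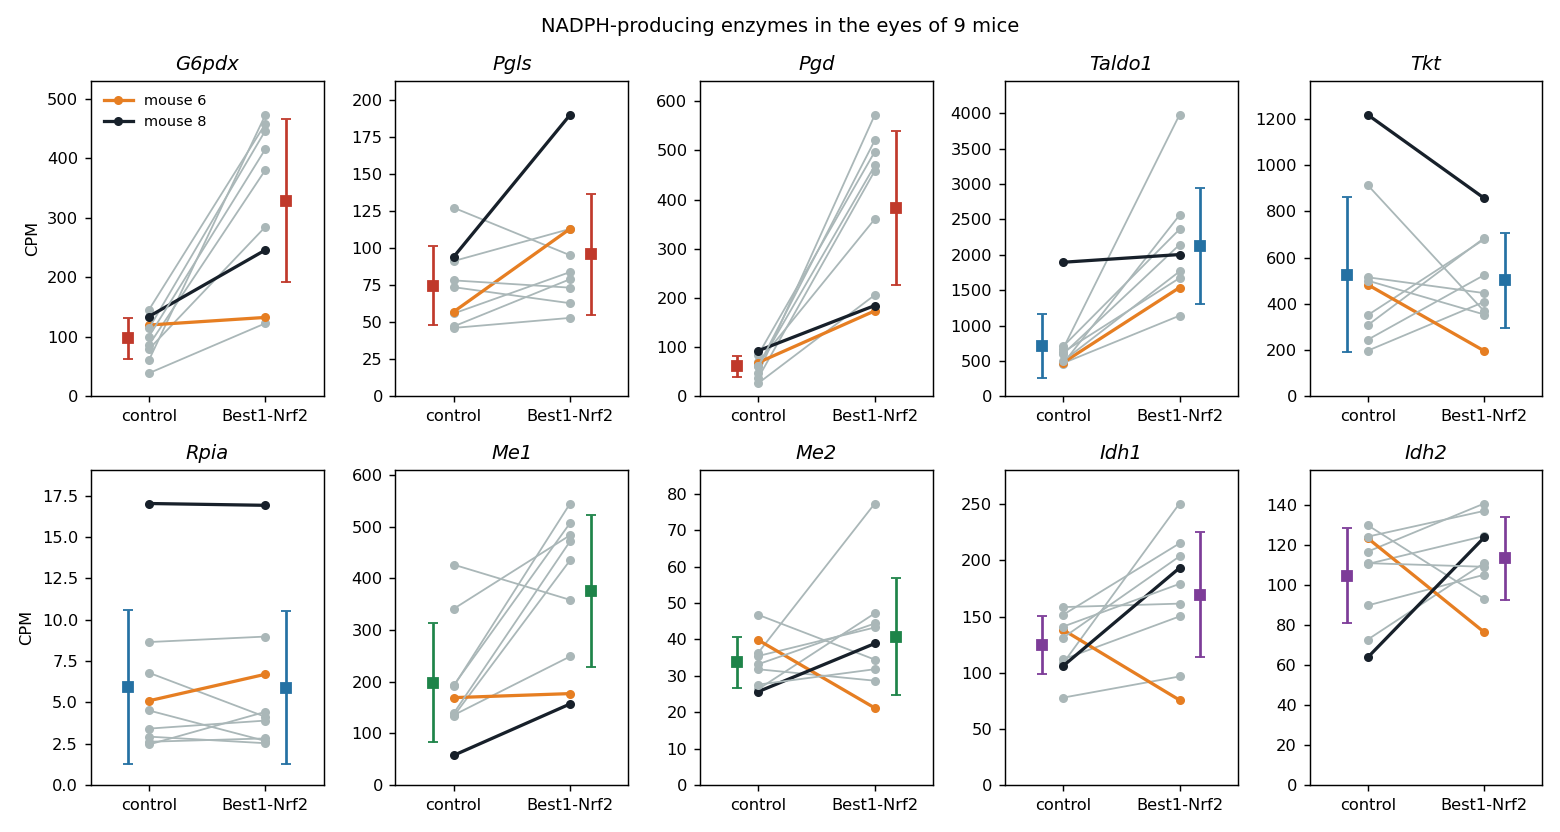
Level of each member in CPM (vertical axes start at 0) in the control and Best1-Nrf2 eye of 9 mice, with a line joining the eyes of a mouse and squares giving the mean ± SD. *Pgd* is the member whose groups were apart, and the controls of mouse 8 (black) are the highest of *Pgd*, *Taldo1*, *Tkt* and *Rpia* and the lowest of *Me1*, *Me2* and *Idh2*.

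In the oxidative branch, the first and the last enzyme rose and the lactonase between them did not pass. *G6pdx* (ENSMUSG00000031400, chromosome X, 74409483–74429194, minus strand) encodes glucose-6-phosphate dehydrogenase, which commits glucose-6-phosphate to the pathway and makes the first NADPH. Its level was 38.7 CPM in the lowest control eye, 100.4 in the median and 145.3 in the highest, against 122.6, 380.5 and 473.2 CPM in Best1-Nrf2 eyes. The groups overlapped, with 7 of 9 treated eyes above every control. *G6pdx* was 3.27-fold higher (log2 fold change 1.71, SE 0.26, adjusted p = 0.001993) and was higher in 9 of 9 mice, as were 3.12% of all genes tested. The smallest rise was in mouse 6 (0.15 on the log2 scale) and the largest in mouse 5 (2.96). The gene shares its locus with *Ikbkg*, which lies on the opposite strand. Of the 31-base words of *G6pdx*, 23.6% occur in other genes, most often in *Ikbkg*, and the counting is not stated to use strand, so reads of the overlap cannot be told apart. The level of *Ikbkg* was 27.2 ± 14.3 CPM in control eyes against 28.0 ± 15.4 CPM after Best1-Nrf2 (SD over 9 eyes; log2 fold change 0.01, adjusted p = 0.998).

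*Pgd* (ENSMUSG00000028961, chromosome 4, 149149991–149166771, minus strand) encodes 6-phosphogluconate dehydrogenase, which makes the second NADPH and releases the pentose. Control eyes ranged from 26.6 to 92.5 CPM (median 61.2) and Best1-Nrf2 eyes from 173.6 to 572.4 CPM (median 458.6). The lowest treated eye was above the highest control, a separation that 1.05% of all genes tested showed in this direction. *Pgd* had the largest change of the 10, 6.17-fold (log2 fold change 2.63, SE 0.30, adjusted p = 0.0002794). Within mice it rose by 1.00 in mouse 8 and 1.34 in mouse 6, and by 2.39 to 3.61 in the other 7.

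*Pgls* (ENSMUSG00000031807, chromosome 8, 71592176–71601092, plus strand) encodes the lactonase that links these steps without making NADPH. It was found at 46.1 to 127.2 CPM in control eyes (median 73.6) and 52.9 to 189.9 CPM in Best1-Nrf2 eyes (median 83.8). All but 1 treated eye lay within or below the control range, and 6 of 9 mice had more in the treated eye. The log2 fold change was 0.34 (SE 0.18, adjusted p = 0.4874). It overlaps *Fam129c* on the same strand, a gene with 1080 counts over all libraries against 53840 for *Pgls*. Mice 6 and 8, in which *G6pdx* and *Pgd* rose least, had the largest *Pgls* changes, 0.99 and 1.01.

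In the non-oxidative branch, *Taldo1* was the member that passed, while *Tkt* and *Rpia* had estimates close to 0. *Taldo1* (ENSMUSG00000025503, chromosome 7, 141392199–141402968, plus strand) encodes transaldolase, which transfers a dihydroxyacetone unit between sugar phosphates. Control eyes held 460.1 to 1895 CPM (median 595.4) and Best1-Nrf2 eyes 1139 to 3981 CPM (median 2004). The highest control was that of mouse 8, and 5 of 9 treated eyes were above it. *Taldo1* was 3.19-fold higher (log2 fold change 1.67, SE 0.26, adjusted p = 0.002218) and higher in 9 of 9 mice. Mouse 8 showed a change of 0.08, and the other mice 1.29 to 2.57. Without mouse 8 the log2 fold change was 1.86.

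*Tkt* (ENSMUSG00000021957, chromosome 14, 30548359–30574720, plus strand) encodes transketolase, which works beside transaldolase in joining the pathway to glycolysis. Its level was 197.1 to 1218 CPM in control eyes (median 482.8) and 196.1 to 856.9 CPM in Best1-Nrf2 eyes (median 446.3). The ranges overlapped almost wholly, and 4 of 9 mice had more in the treated eye. The fitted change was 0.05 (SE 0.32, adjusted p = 0.9788), but single mice moved far in both directions, from −1.31 in mouse 4 to 1.15 in mouse 5.

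*Rpia* (ENSMUSG00000053604, chromosome 6, 70765720–70792232, minus strand) encodes the ribose-5-phosphate isomerase that interconverts the pentose phosphates. It was the least abundant member, at 2.45 to 17.04 CPM in control eyes (median 4.51) and 2.53 to 16.9 CPM in Best1-Nrf2 eyes (median 4.12). Both highest values came from mouse 8. The log2 fold change was −0.01 (SE 0.22, adjusted p = 0.9943), with 5 of 9 mice higher.

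Of the malic enzymes, the cytosolic one was higher. *Me1* (ENSMUSG00000032418, chromosome 9, 86581371–86695953, minus strand) encodes the cytosolic enzyme that turns malate into pyruvate and NADPH. It was measured at 57.2 to 426.5 CPM in control eyes (median 169) and 156.8 to 544.9 CPM in Best1-Nrf2 eyes (median 435.0). The groups overlapped, with 5 of 9 treated eyes above all controls, and mouse 1 went the other way (−0.25). *Me1* was 2.02-fold higher (log2 fold change 1.01, SE 0.24, adjusted p = 0.03586) in 8 of 9 mice. This call was lost without the mouse block (0.92, adjusted p = 0.192) and whenever mouse 2, 3, 4, 5, 7, 8 or 9 was left out (0.91 to 1.08, adjusted p = 0.0572 to 0.111). Of its 31-base words, 36.9% also occur elsewhere, chiefly in *Gm7049*, which was not analysed here, so that a part of these counts may be shared.

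*Me2* (ENSMUSG00000024556) encodes a mitochondrial malic enzyme that uses mainly NAD, and so contributes less to NADPH. Its levels were 25.7 to 46.8 CPM in control eyes (median 33.2) and 21.2 to 77.4 CPM in Best1-Nrf2 eyes (median 38.9). Only 2 of 9 treated eyes were above all controls. The log2 fold change was 0.22 (SE 0.21, adjusted p = 0.7783), with 6 of 9 mice higher.

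Neither isocitrate dehydrogenase passed. *Idh1* (ENSMUSG00000025950, chromosome 1, 65158616–65186500, minus strand) encodes the enzyme of the cytosol and peroxisomes, which makes NADPH from isocitrate. It was at 77.8 to 158.4 CPM in control eyes (median 131.1) and 75.6 to 250.7 CPM in Best1-Nrf2 eyes (median 179.1). Although 8 of 9 mice had more in the treated eye and 6 treated eyes were above all controls, the log2 fold change of 0.39 (SE 0.20) had an adjusted p of 0.4538. The exception was mouse 6, at −0.87.

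*Idh2* (ENSMUSG00000030541, chromosome 7, 80094846–80115392, minus strand) encodes the mitochondrial form. Its control eyes ranged from 63.9 to 130.1 CPM (median 111.1) and its Best1-Nrf2 eyes from 76.5 to 141.0 CPM (median 111.2). The medians were nearly equal, and the log2 fold change was 0.13 (SE 0.18, adjusted p = 0.8678).

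**Figure D2:**
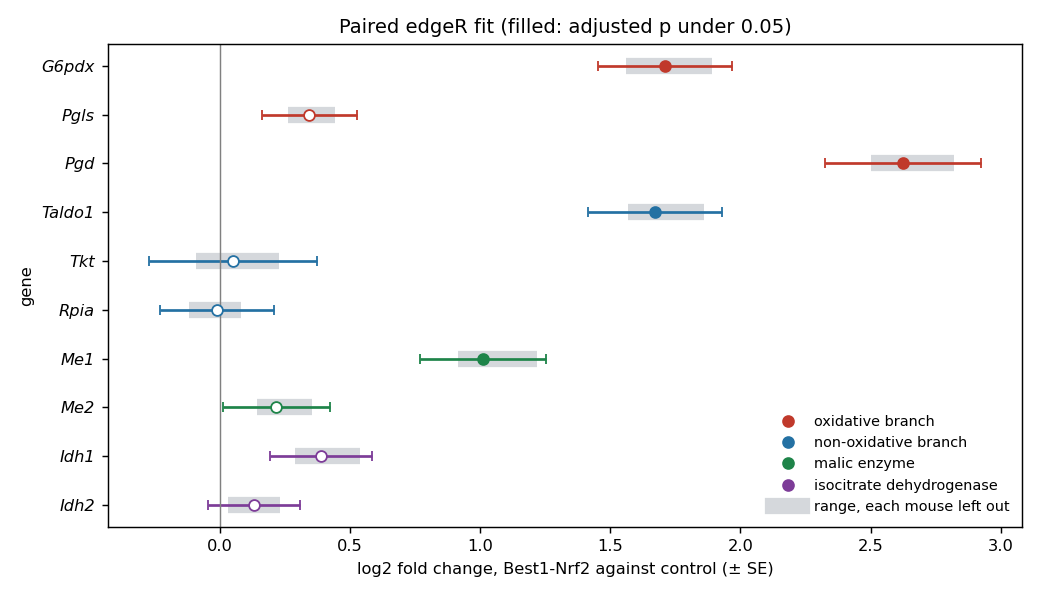
Log2 fold change of each member (horizontal axis) with its SE, coloured by branch, filled where the adjusted p is under 0.05, with grey bars from the lowest to the highest estimate when each mouse was left out. The 4 filled points lie between 1.01 and 2.63, and the grey bars of *Tkt* and *Rpia* cross 0.

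A passed threshold for one enzyme and not for another does not show that they differ, so 8 pairs of genes were compared directly. The pairs were chosen with earlier results of these data known, so their p and intervals are not those of contrasts chosen beforehand. For each pair, the within-mouse change of one was subtracted from that of the other, and a 2-sided exact sign-flip permutation test over the 9 mice was applied, whose smallest p is 0.0039. The change of *Pgd* exceeded that of *G6pdx* in 9 of 9 mice, by 0.91 on the log2 scale (95% interval of *G6pdx* minus *Pgd*, −1.23 to −0.57; exact p = 0.0039, adjusted p = 0.0104). The *Pgls* change was below that of *Pgd* in 8 of 9 mice, with a mean difference of −2.26 (95% interval, −3.31 to −1.16; exact p = 0.00781, adjusted p = 0.0156). The transferases of the non-oxidative branch also parted, as *Tkt* minus *Taldo1* was −1.61 (95% interval, −2.65 to −0.63; exact p = 0.0039, adjusted p = 0.0104), with a negative value in 9 of 9 mice.

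Compartments were compared in the same way. *Me1* minus mitochondrial *Me2* was 0.79 (95% interval, 0.24 to 1.34; exact p = 0.0195, adjusted p = 0.0312), positive in 7 of 9 mice. This call was lost without the mouse block (0.79, adjusted p = 0.0905) and when mouse 2, 4, 5, 6, 7, 8 or 9 was left out, with adjusted p of 0.05 to 0.0625 by the exact test. *G6pdx* minus *H6pd*, the dehydrogenase of the endoplasmic reticulum, was 1.19 (95% interval, 0.67 to 1.70; exact p = 0.0039, adjusted p = 0.0104) and positive in 9 of 9 mice. *Idh1* minus *Idh2* was 0.25, and its 95% interval of −0.06 to 0.59 reached from no difference to a larger change of *Idh1* (exact p = 0.0977, adjusted p = 0.13). It was 0.155 without mouse 5 and 0.155 to 0.322 over all mice left out in turn.

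The remaining pairs did not pass either. *G6pdx* and *Taldo1*, the first oxidative and a non-oxidative enzyme, had nearly the same mean change, with a difference of 0.04, but the 95% interval of −0.74 to 0.74 left room for either to exceed the other (exact p = 0.898, adjusted p = 0.898). *Rpia* minus *Tkt* was −0.06 (95% interval, −0.96 to 0.80; exact p = 0.863, adjusted p = 0.898).

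**Figure D3:**
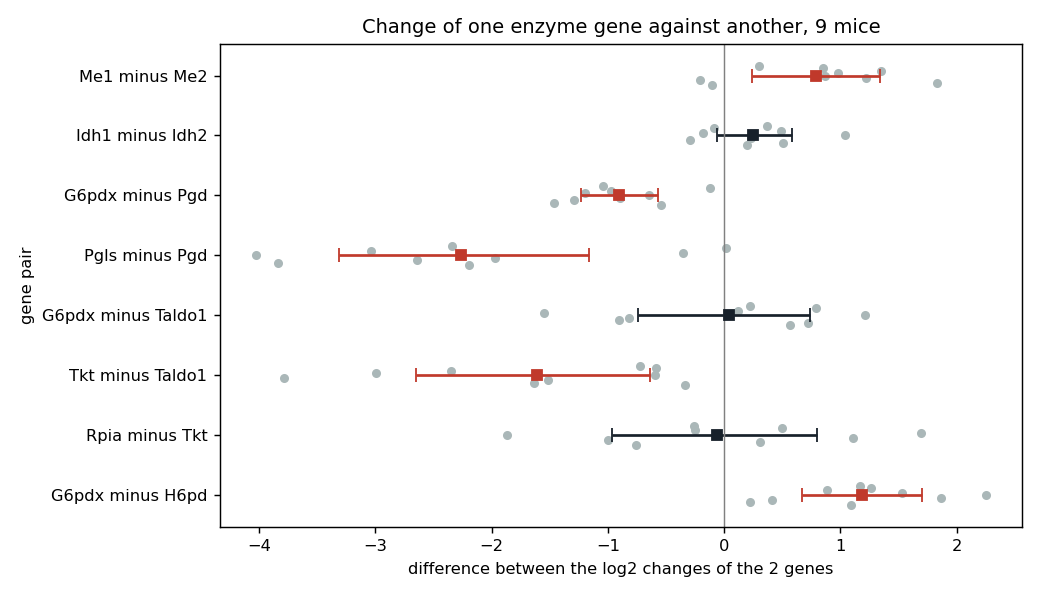
Difference between the log2 changes of 2 genes (horizontal axis) in each of 9 mice (grey points), with the mean (square) and its 95% interval from the inverted sign-flip test, in red where the adjusted p over 8 pairs is under 0.05. All 9 points of *G6pdx* minus *Pgd* and of *Tkt* minus *Taldo1* lie below 0, and those of *G6pdx* minus *Taldo1* lie on both sides.

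The order of the members by level was not the same in both groups. Per kilobase of transcript, *Taldo1* was the most abundant of the 10 in both groups, at a mean of 577.1 ± 369.1 CPM per kb in control and 1731 ± 665.4 CPM per kb in Best1-Nrf2 eyes (SD, n = 9 each). Its mean share of the summed levels per kb was 51.2% in control and 66.2% in Best1-Nrf2 eyes. *Pgd* had rank 8 of 10 in control eyes (27.4 ± 9.55 CPM per kb) and rank 2 in Best1-Nrf2 eyes (172.3 ± 70.6 CPM per kb).

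*G6pdx* moved from rank 7 (36.8 ± 13.1 CPM per kb) to rank 4 (124.1 ± 51.9 CPM per kb), and *Me1* went from 60.3 ± 34.8 to 114.3 ± 44.9 CPM per kb. *Tkt* held 163.2 ± 104.0 CPM per kb in control and 155.9 ± 63.7 CPM per kb in Best1-Nrf2 eyes, so that *Pgd*, *Tkt*, *G6pdx*, *Me1* and *Pgls* (107.7 ± 45.8 CPM per kb) lay within an SD of their neighbours in the treated order, as did *Idh1* and *Idh2*. In control eyes this held for *Pgls* (83.7 ± 29.9 CPM per kb), *Me1*, *Idh2* and *Idh1*, and for *G6pdx* and *Pgd*. *Me2* (12.8 ± 2.61 and 15.5 ± 6.07 CPM per kb) and *Rpia* (3.25 ± 2.54 and 3.22 ± 2.54 CPM per kb) had ranks 9 and 10 in both groups. *Idh1* was at 54.3 ± 11.2 and 73.7 ± 24.3 CPM per kb, and *Idh2* was at 59.9 ± 13.6 and 64.9 ± 11.8 CPM per kb.

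**Figure D4:**
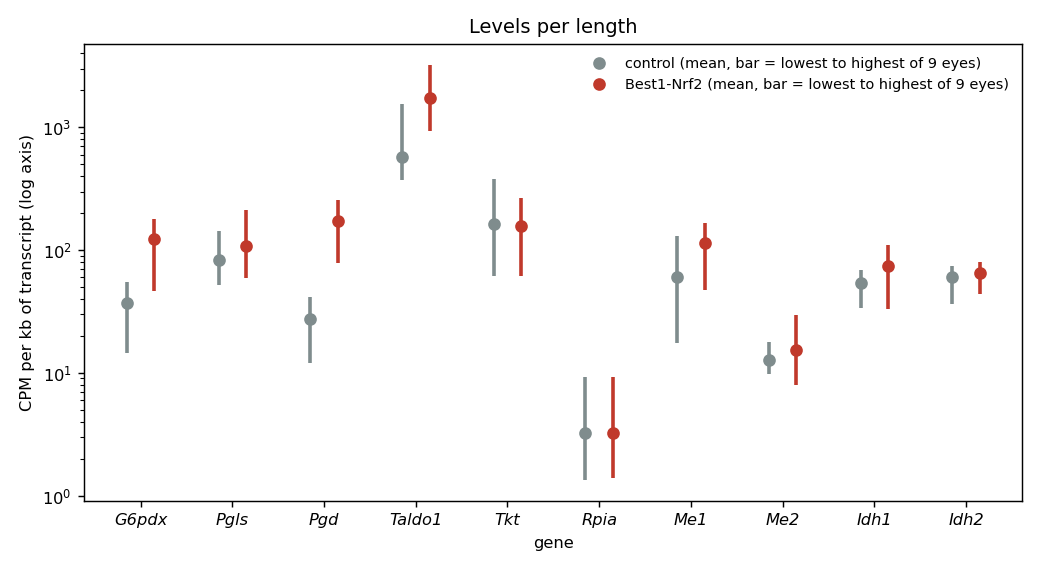
Mean level per kilobase of transcript (vertical log axis) in control (grey) and Best1-Nrf2 (red) eyes, with bars from the lowest to the highest of 9 eyes. *Taldo1* lies highest in both groups, and *Pgd* moves from 27.4 to 172.3 CPM per kb.

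The members did not move together in each mouse. Mouse 6 had the smallest *G6pdx* change (0.15) and lower values in the treated eye for *Tkt* (−1.30), *Me2* (−0.91), *Idh1* (−0.87) and *Idh2* (−0.69), while its *Taldo1* difference was 1.69. Mouse 8 had the smallest changes of *Pgd* (1.00), *Taldo1* (0.08) and *Nfe2l2* (1.13), and the largest of *Pgls* (1.01) and *Idh2* (0.96). Mean changes over the branch were positive in 9 of 9 mice for the oxidative genes (0.82 to 2.05), 8 of 9 for the non-oxidative genes (−0.15 to 1.26), and 7 of 9 for the malic enzymes (−0.42 to 1.27) and for the isocitrate dehydrogenases (−0.78 to 0.91).

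**Figure D5:**
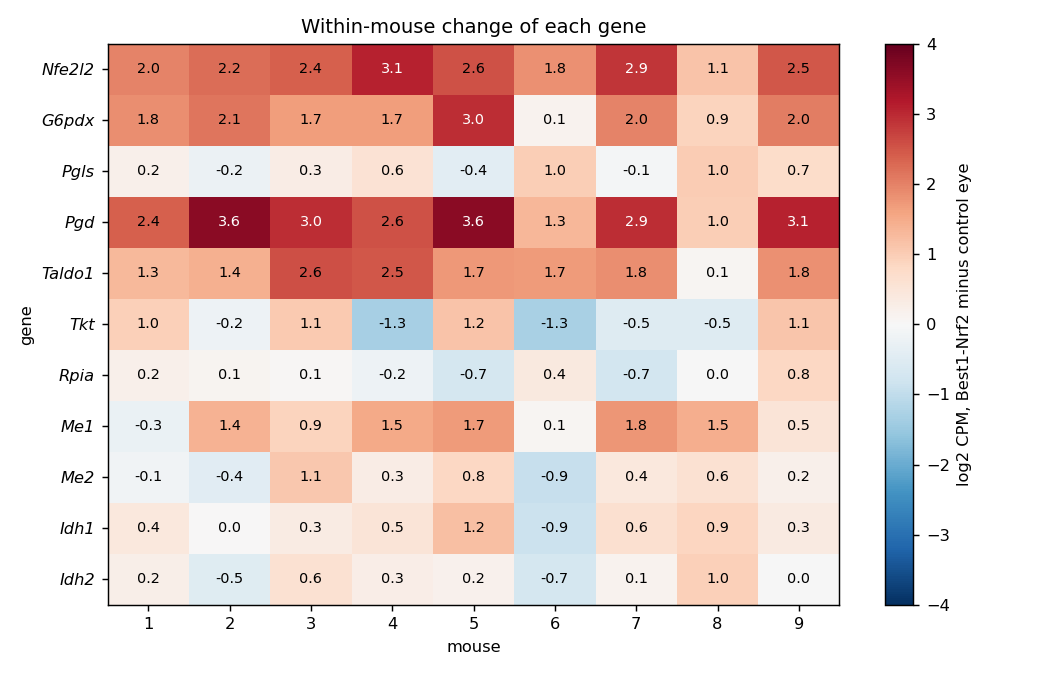
Change in log2 CPM, Best1-Nrf2 minus control eye, of *Nfe2l2* and each member (rows) in each of 9 mice (columns), with red for higher and blue for lower in the treated eye. The *Pgd* row is positive in every mouse, from 1.00 to 3.61, whereas the *Tkt* row runs from −1.31 to 1.15.

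Whether changes of 2 members followed each other over the 9 mice was examined for all 45 pairs of members, with exact permutation of the pairings. *G6pdx* and *Pgd* changed most alike, with Pearson's r = 0.891 (exact p = 0.00178, adjusted p = 0.0508) and Spearman's rho = 0.90 (adjusted p = 0.0456 by the same exact test), and r was 0.937 without the 2 mice farthest from the median *G6pdx* change. Larger changes of *G6pdx* came with lower changes of *Pgls* across mice (r = −0.828, exact p = 0.00226, adjusted p = 0.0508; rho = −0.817, adjusted p = 0.162; r = −0.717 without the same 2 mice). *Rpia* and *Me1* had the strongest rank relation of the 45 (rho = −0.917, adjusted p = 0.0456 by the exact test; r = −0.728, adjusted p = 0.193; r = −0.727 without the 2 mice farthest from the median *Rpia* change). By rho, these and *G6pdx* with *Pgd* passed the adjusted threshold. By Pearson's r, 0 of the 45 passed and 7 had an unadjusted p under 0.05. Changes of genes in 1 mouse share both libraries, so these pairs are not independent of each other.

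The change of each member was then set against that of *Nfe2l2*, which ranged from 1.13 (mouse 8) to 3.08 (mouse 4). For *Taldo1*, r was 0.839 (exact p = 0.00687, adjusted p = 0.0687 over 10 members) and rho was 0.767 (exact p = 0.0214, adjusted p = 0.214). Its r was 0.602 without mouse 8 alone and 0.801 without mouse 4 alone, so it depended more on mouse 8. It was 0.394 without mice 8 and 4, which are the ends of the *Nfe2l2* range, so leaving both out also narrows that range. Leaving out mouse 3 alone raised r to 0.912 (adjusted p = 0.0156 by the exact test). *Pgd* had r = 0.705 (exact p = 0.0335, adjusted p = 0.167), rho = 0.533 (exact p = 0.148, adjusted p = 0.369) with r = 0.667 without the same mice and 0.426 without mouse 8 alone. No relation among the 10 passed the adjusted threshold over all 9 mice, and the remaining r ranged from −0.482 for *Pgls* to 0.566 for *G6pdx*. Several depended on mouse 8. For *Pgls*, r was −0.215 without mouse 8 and −0.672 without mouse 4. For *Me1*, r was 0.341 (exact p = 0.374, adjusted p = 0.623; rho = 0.617, adjusted p = 0.369), 0.784 without mouse 8 (adjusted p = 0.237 by the exact test) and 0.805 without mice 8 and 4. Without mouse 8, r went from 0.217 to 0.596 for *Me2* and from 0.164 to 0.626 for *Idh1* (adjusted p = 0.295 for each by the exact test), and without mice 8 and 4 it was 0.707 and 0.709.

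For each member, the gene with the most similar log2 CPM over the 18 libraries was found among 11808 genes, as a description without a test. *Pgd* was most like *Osgin1* (r = 0.986), *G6pdx* most like *Acss2* (r = 0.983), which makes acetyl-CoA from acetate, and *Me1* most like *Spats2* (r = 0.979). The others paired with *Ube2a* (*Pgls*, r = 0.964), *Lamp1* (*Idh1*, r = 0.958), *Ghr* (*Tkt*, r = 0.945), *Tubb4b* (*Taldo1*, r = 0.938), *Zfp91* (*Rpia*, r = 0.925), *Emc3* (*Idh2*, r = 0.87) and *Uap1l1* (*Me2*, r = 0.829). These points share libraries, depth and the group difference.

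Other genes of the pathways were read from a list of 24, of which 21 were tested. *Nadk2*, *Prps2* and *Mthfd1l* were higher, and the list's median log2 fold change was −0.02. None was lower with edgeR (1 at an unadjusted p under 0.05), DESeq2 (3) or voom (0). *Nadk2*, the mitochondrial kinase that makes NADP from NAD, rose from 24.4 ± 10.8 to 70.6 ± 37.4 CPM (SD, n = 9 each; log2 fold change 1.44, adjusted p = 0.009816; 8 of 9 mice). *Prps2*, which makes phosphoribosyl pyrophosphate from ribose-5-phosphate, had a log2 fold change of 0.90 (adjusted p = 0.02422; 104.2 ± 41.0 to 191.1 ± 64.2 CPM; 8 of 9 mice). *Mthfd1l*, a mitochondrial folate enzyme, had one of 1.05 (adjusted p = 0.04291; 2.98 ± 1.19 to 6.39 ± 3.12 CPM; 9 of 9 mice). Of 18 alternatives, *Mthfd1l* kept its call in 6 and *Prps2* in 11, and both lost it without the mouse block (adjusted p = 0.108 and 0.0815).

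By the mean of both groups, the most abundant genes of this list that did not pass were the subunits of the NAD-dependent isocitrate dehydrogenase, which makes NADH in the citric acid cycle. These were *Idh3a* (159.8 ± 48.4 CPM in control eyes, log2 fold change −0.22, adjusted p = 0.6982), *Idh3b* (123.0 ± 23.8 CPM, −0.02, adjusted p = 0.9868) and *Idh3g* (103.5 ± 13.2 CPM, −0.06, adjusted p = 0.9407). *Nadk*, the cytosolic NAD kinase, was at 104.5 ± 45.6 CPM in control eyes and 90.5 ± 35.5 CPM with Best1-Nrf2 (−0.18, adjusted p = 0.8995). *H6pd* was at 8.54 ± 3.67 CPM without and 13.5 ± 8.82 CPM with Best1-Nrf2 and did not pass (0.54, adjusted p = 0.5613). Of the genes not tested, *G6pd2*, a copy of *G6pdx*, had 55 counts over all libraries, *Tktl1* had 7 and *Tktl2* had 0.

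Enzymes that spend NADPH were counted in a list of 13 reductases. Of these, 5 were higher and the median log2 fold change was 0.42, while none was lower with edgeR (0 at an unadjusted p under 0.05), DESeq2 (1) or voom (0). *Txnrd1*, which reduces thioredoxin, had a log2 fold change of 4.08 (adjusted p = 4.133e-05; 70.1 ± 15.5 to 1354 ± 691.7 CPM), and *Blvrb*, biliverdin reductase B, one of 3.91 (adjusted p = 7.151e-06; 33.0 ± 15.9 to 483.2 ± 160.3 CPM; SD, n = 9 each). *Gsr*, which reduces oxidized glutathione, changed by 2.07 (adjusted p = 0.0004068), the quinone reductase *Nqo1* by 2.02 (adjusted p = 9.58e-05) and the carbonyl reductase *Cbr1* by 1.22 (adjusted p = 0.003977). By the mean of both groups, the most abundant that did not pass were *Akr1a1* (0.33, adjusted p = 0.4176), *Por* (−0.20, adjusted p = 0.8635) and *Akr1b3* (0.55, adjusted p = 0.2476). In control eyes *Fasn*, fatty acid synthase, was above *Akr1b3*, at 67.7 ± 17.6 and 60.2 ± 47.5 CPM, and did not pass (−0.13, adjusted p = 0.8549).

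Markers of other cell types moved with the groups. Summed cone markers were 297.9 to 2258 CPM in the controls against 54.1 to 534.2 CPM in treated eyes, lower in 8 of 9 mice, and 9 of the 10 genes were lower. Summed rod markers were 57.9 to 529.1 CPM and 5.04 to 107.2 CPM, with 2 of 8 tested genes lower and *Nrl* and *Nr2e3* under the filter. The exception in both lists was mouse 6, whose *G6pdx* change was the smallest. Macrophage and microglia markers were 145.1 to 493.4 CPM and 160.4 to 654.1 CPM, with 9 of 14 higher, and of 17 RPE markers, all tested, 1 was higher and 6 were lower (sums, 13650 to 70230 CPM and 16790 to 80110 CPM). With edgeR, the Müller glia (10 genes), fibroblast and sclera (10), endothelial (10), red blood cell (5 tested) and melanocyte (6) lists held at most 1 gene called in each direction. The part of these cells in the members' changes was not tested beyond the covariate fit, and in bulk RNA fewer cells of a type and less RNA per cell cannot be told apart.

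With the photoreceptor covariate, 37 genes in all passed, and the log2 fold changes were 1.25 for *Pgd* (adjusted p = 0.218), 1.39 for *Taldo1* (adjusted p = 0.238), 0.93 for *Me1* (adjusted p = 0.419) and 0.45 for *G6pdx* (adjusted p = 0.639). At an unadjusted p under 0.05, 2 members were then higher and 1 was lower. In the same fit *Nadk2* (0.71, adjusted p = 0.583), *Prps2* (0.52, adjusted p = 0.599) and *Mthfd1l* (0.89, adjusted p = 0.486) lost their calls. Of the 5 reductases that had passed, *Txnrd1* (2.74, adjusted p = 0.087), *Gsr* (1.61, adjusted p = 0.161), *Nqo1* (2.41, adjusted p = 0.0662) and *Cbr1* (1.98, adjusted p = 0.0817) did not pass, and *Blvrb* did (4.50, adjusted p = 0.015). The covariate itself differed between the groups, as given above. When mice 6 and 8 were both left out, an alternative chosen after the data were seen, *Pgd*, *G6pdx*, *Taldo1* and *Me1* passed, with log2 fold changes of 3.02 for *Pgd*, 2.04 for *G6pdx*, 1.88 for *Taldo1* and 1.08 for *Me1* (adjusted p = 0.0368 or less). Mice 6 and 8 had the smallest *G6pdx* and *Pgd* changes of all, so leaving them out had to raise those values, and nothing is drawn from the rise.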

How the data were processed

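Both eyes of 9 mice were sequenced from amplified poly(A) RNA, and groups and animals were taken from the labels, which give 9 *rd1* pairs. The methods name 4 pairs for *rd1* and 5 for the wild-type strain CD1 at P40, which add up to 9. The labels give no CD1 mouse, so all 9 pairs were analysed as labelled, and a mixture of strains was not tested. The authors aligned reads to mm10 with STAR, counted them with featureCounts, and estimated transcript levels with Salmon (version 0.8.1 per the submitters' processing notes). The deposited table holds expected counts per gene, rounded to whole numbers and unscaled. This unit was inferred from the values, because 9 genes with a mean over 20 counts repeat another gene's values in every library. Which counter made the table is not given in the sources used here, nor which of the sequencing runs held each library. Reads made by PCR were not marked by molecular identifiers, so precision from counts covers counting error only. Symbols were found for 47224 of 47729 gene IDs.

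Genes were kept by filterByExpr, scaled by TMM and tested by quasi-likelihood F tests in edgeR 4.0.16 (R 4.3.3) over all 18958 genes, with mouse as a block and Benjamini-Hochberg adjustment at 0.05. Log2 CPM used a prior count of 2. The SE was obtained from the F statistic. Pairs of genes and relations across mice were tested by exact permutation with scipy 1.17.1, and intervals were taken by inverting the sign-flip test. Levels per kb used the longest principal transcript of the GENCODE annotation on GRCm38, the assembly that mm10 denotes. Shared sequence was measured as the percentage of 31-base words also found in other genes. The edgeR fit was tested on simulated counts that held no mouse effect and no difference in cell mix.

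The replicate numbers pair the eyes of 1 animal. After group means were removed, the correlation between the eyes of a mouse had a median of −0.000949 (range, −0.373 to 0.644). Over 72 pairs of libraries of 1 group, the lowest chi-square per degree of freedom was 49.5, so none was a duplicate. Named were all members, *Nfe2l2*, genes of 2 lists that passed and the 3 most abundant that did not, and the gene most alike each member among genes whose mean log2 CPM was 2 or more. *Ikbkg*, *Fam129c*, *Gm7049*, *Gm17823*, *H6pd* and the genes not tested were named for their overlap, sequence or pair, and *Nadk* and *Fasn*, added after their values were seen, for their control levels. The members, lists and gene pairs were chosen with earlier results of these data known. Alternatives were no replicate block, RLE and upper-quartile scaling, no count filter, at least 10 counts in every library, a rod and cone marker covariate, DESeq2 1.42.0, limma 3.58.1 voom, a prior count of 0.5, each mouse left out in turn and, added after seeing the data, mice 6 and 8 left out together.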

Additional observations from a re-analysis of the deposited data

Results flagged for a closer look

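In 33 groups of 9 values, the highest or lowest sample was compared with its nearest neighbour, and 2 stood apart by Dixon's criterion, where chance gives 1.65. Both were the control eye of mouse 8. Its *Taldo1* level was 10.9 log2 CPM, while the next highest control had 9.46, a gap of 0.699 of the group's range. Its *Nfe2l2* level was 7.06 log2 CPM, with 6.60 for the next, a gap of 0.579 of the range. This library was also the smallest, with 18956748 counts.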

How the results depend on the processing

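The calls of *G6pdx*, *Pgd* and *Taldo1* held in 17 of 18 alternatives each and were lost with the photoreceptor marker covariate, where 0 members passed (37 genes in all, against 806 without the covariate) and where *Tkt* (−1.57), *Me2* (−0.27), *Idh1* (−0.12) and *Idh2* (−0.023) turned negative, while *Pgls* went from 0.34 to 0.78 (adjusted p = 0.347). DESeq2 called 1478 genes and leaving out each mouse 540 to 1046. *Me1* held in 9 of 18. Without the replicate block, *Me1* (0.92, adjusted p = 0.192) was lost, *Me1* minus *Me2* (0.79, adjusted p = 0.0905) missed its threshold, *Tkt* was −0.066 and 742 genes passed. *Me1* minus *Me2* was 0.66 to 0.91 when each mouse was left out and 0.75 (adjusted p = 0.104) without mice 6 and 8. Estimates near 0 changed sign: *Rpia* without a count filter (0.014) and with voom (0.0046), and, with each mouse left out, *Rpia* (−0.12 to 0.083), *Tkt* (−0.092 to 0.23), *G6pdx* minus *Taldo1* (−0.11 to 0.24) and *Rpia* minus *Tkt* (−0.28 to 0.17). So did r with *Nfe2l2* for *Tkt* (−0.163 to 0.395), *Idh1* (−0.122 to 0.626) and *Idh2* (−0.483 to 0.516). The causes were not tested.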
